A study of Danio rerio with 6 samples.

Results

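The 10 genes described here are named for vitamin D metabolism, the vitamin D receptor and calcium balance: cyp24a1, cyp27b1, cyp2r1, vdra, vdrb, trpv6, stc1, pth1a, gcm2 and casr. They were taken by gene symbol from a table of 39214 genes, in which each symbol matched 1 row. The study compared wild-type AB zebrafish larvae exposed to 4 mg/L Lurasidone, an antipsychotic that blocks dopamine and serotonin receptors, with control larvae. Both groups were collected at 5 dpf (days post-fertilization), and each had 3 libraries. The labels give 3 hpf (hours post-fertilization) as the start of exposure, and the methods give a later hour and name dimethyl sulfoxide as the solvent of the controls. Larvae were not fed, and the number of larvae pooled per library is not given in the sources used here.

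Vitamin D is made active in steps by cytochrome P450 enzymes. Cyp2r1 adds a hydroxyl group at carbon 25 in the liver, Cyp27b1 then makes the active hormone, and Cyp24a1 breaks the hormone and its precursor down. The hormone binds the vitamin D receptor, of which zebrafish has copies a and b, and the receptor pairs with a retinoid X receptor to switch on genes that include cyp24a1 itself. Fish take up most of their calcium from water through skin and gill ionocytes, where Trpv6 is the entry channel. Stanniocalcin 1 lowers this uptake, parathyroid hormone raises it, and the calcium-sensing receptor Casr reads the calcium level. The factor Gcm2 is required in zebrafish for the ionocytes that secrete protons.

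The authors deposited FPKM, that is fragments scaled to gene length and library size, so levels can be set side by side between genes. The Lurasidone libraries held 11749887 to 12553624 fragments on genes and the control libraries 12210400 to 15107664, read back from FPKM times gene length. Control replicate 2 stood apart in its mitochondrial share, which was 1.41% of fragments, against 3.60 to 4.26% in the other 5 libraries. The methods name both whole larvae and brain as the source of RNA. Marker genes of liver summed to 2043 to 3002 FPKM in Lurasidone and 2787 to 3650 FPKM in control. Most of this sum was apoa2, with means of 1954 FPKM in Lurasidone and 2753 FPKM in control. The liver markers did not move together. The means in Lurasidone and control were 191 and 114 FPKM for fabp10a, 386 and 302 FPKM for tfa, and 91.3 and 96.8 FPKM for fgb. Pancreas, gut, skin, muscle and blood each also had markers present in every library. Other listed markers were nearly absent: mylpfa of muscle, ctrb1 of pancreas and alas2 of blood had 0 to 6 fragments per library.

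Of the 10 genes, 8 had at least 0.5 FPKM in at least 3 libraries and were tested with limma on log2(FPKM + 1). The genes stc1 and casr did not reach this level. With p adjusted by Benjamini-Hochberg over 23409 genes and a threshold of 0.05, cyp24a1 and cyp2r1 were higher in Lurasidone, trpv6 was lower, and the remaining 5 genes did not pass. Over all tested genes, 5.79% were higher and 3.90% were lower, 9.70% in all. In 1 simulated draw this test let through more false calls than its threshold allows and voom did not. Calls near 0.05 are therefore weak where voom does not share them. The draw gave every gene the same relative variation between libraries, unlike these data, so it does not secure a call that voom shares. When the log2 fold change also had to reach 1 or -1, cyp24a1 and trpv6 remained, against 3.83% of all tested genes. The Lurasidone and control libraries did not overlap in 4 of the 8 genes, which were 3 above and 1 below, against 33.3% of all tested genes. A fit of the fragments themselves with limma voom called the same 3 genes, against 12.9% of all tested genes.

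**Figure D1:**
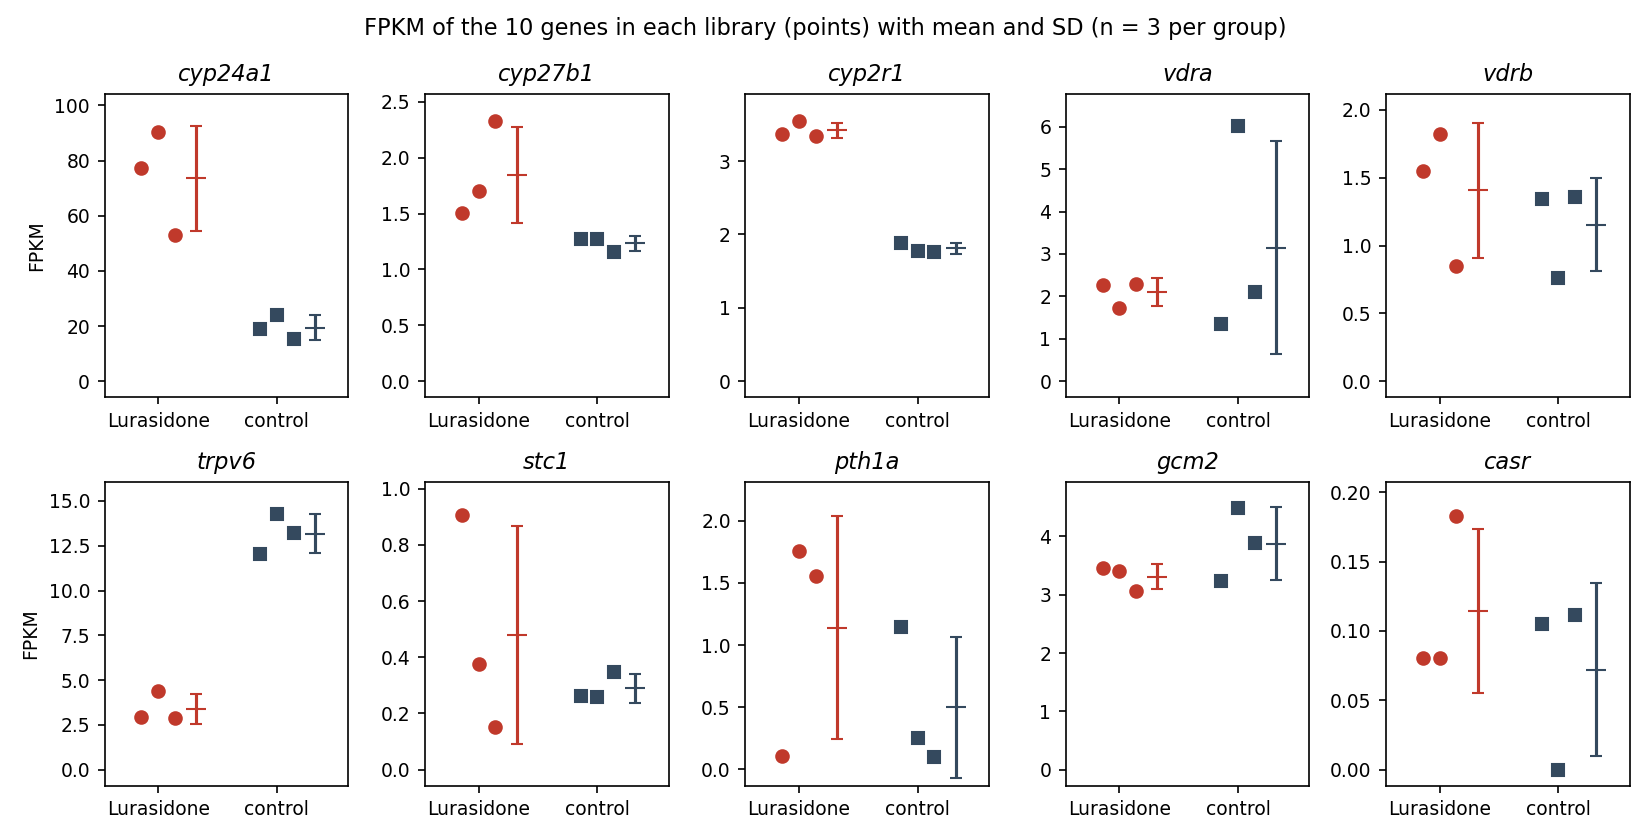
FPKM (y axis, each panel with its own scale) of the 10 genes in the 3 Lurasidone libraries (circles) and the 3 control libraries (squares), drawn from replicate 1 to 3, with the mean and SD beside them. The groups are apart for cyp24a1, cyp27b1, cyp2r1 and trpv6, and they overlap for the other genes.

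The largest increase among the 10 genes was that of cyp24a1 (chromosome 6, 55852274 to 55864687, GRCz11), which encodes the 24-hydroxylase that inactivates vitamin D. Its level was 77.4, 90.5 and 52.9 FPKM in the 3 Lurasidone libraries, against 18.9, 24.1 and 15.2 FPKM in the 3 control libraries. The lowest Lurasidone library still lay 2.19-fold above the highest control library. The means were 73.6 ± 19.1 FPKM in Lurasidone and 19.4 ± 4.47 FPKM in control (SD, n = 3 each), a ratio of 3.79. On log2(FPKM + 1) the log2 fold change was 1.86 with a 95% confidence interval from 1.34 to 2.38 (limma adjusted p = 0.00244). These levels rested on 6247 fragments in Lurasidone and 1684 in control, so counting error was small beside the spread of the libraries. It was past the threshold in each of 14 alternative analyses, with log2 fold changes between 1.69 and 2.08.

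Averaged over the libraries of both groups together, the level of cyp24a1 was 46.5 FPKM and exceeded that of 95.3% of tested genes. Within each group, cyp24a1 had the highest level of the 10 genes. Kidney tubules are a known site of this enzyme in mammals. The summed level of 5 kidney tubule markers was 62.1 to 71.5 FPKM in Lurasidone and 49.8 to 57.1 FPKM in control, and 0 of the 4 tested markers were past the threshold. Most of the sum was cdh17, with means of 46.6 FPKM in Lurasidone and 33.5 FPKM in control. The markers did not move together, and lrp2a was lower, with 3.50 FPKM in Lurasidone and 5.62 FPKM in control. The part of kidney tubule cells in the increase of cyp24a1 was not tested. In RNA of whole animals, a change in the number of cells of a type and a change in RNA per cell cannot be told apart.

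The liver 25-hydroxylase gene cyp2r1 (chromosome 7, 27455321 to 27697234) rose less and had a lower level. Its level was 3.37, 3.54 and 3.34 FPKM in Lurasidone, against 1.89, 1.78 and 1.76 FPKM in control. Values within each group were close together and the groups were well apart. The ratio of means was 1.89, and the log2 fold change on log2(FPKM + 1) was 0.65 with a 95% confidence interval from 0.31 to 1.00 (limma adjusted p = 0.0311). The log2 fold change on fragments was 0.91, since the added 1 FPKM weighs on a gene at this level. The call was close to the threshold. It was lost without any 1 of the 6 libraries (adjusted p between 0.0523 and 0.102), without a filter on low values (0.0598) and with the replicate number as a block (0.0667), while the log2 fold change stayed between 0.60 and 0.91.

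The gene model of cyp2r1 spans the calcitonin gene calca, which lies within it on the opposite strand. Calcitonin lowers blood calcium in mammals. The gene calca had 5.90, 6.42 and 4.02 FPKM in Lurasidone and 5.40, 3.57 and 4.12 FPKM in control, so its groups overlapped (limma adjusted p = 0.437). Whether the authors counted fragments by strand is not given in the sources used here.

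The gene of the activating enzyme, cyp27b1 (chromosome 11, 329687 to 339847), had 1.502, 1.71 and 2.33 FPKM in Lurasidone, against 1.27, 1.27 and 1.16 FPKM in control. The 3 Lurasidone values lay above the 3 control values, with a gap of only 1.18-fold between the nearest libraries. On log2(FPKM + 1) the log2 fold change was 0.34 with a 95% confidence interval from -0.06 to 0.74, and it was not past the threshold (limma adjusted p = 0.246). The ratio of means was 1.49, at 32 to 66 fragments per library. So the libraries of the groups were apart, while the interval of the log2 fold change included 0. By the ratio of FPKM, cyp24a1 exceeded cyp27b1 51.6-, 53.1- and 22.7-fold in the Lurasidone libraries and 14.8-, 19.0- and 13.2-fold in the control libraries. This ratio of the degrading to the activating enzyme was chosen after the values were seen and is given with no test.

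Neither copy of the vitamin D receptor gene was past the threshold. The gene vdra (chromosome 23, 45822935 to 45825632) had 2.28, 1.72 and 2.30 FPKM in Lurasidone and 1.34, 6.01 and 2.09 FPKM in control. A single library, control replicate 2, held 58 fragments on vdra, and the other 5 libraries held 17 to 25. Its log2 fold change was -0.26 with a 95% confidence interval from -1.04 to 0.52 (limma adjusted p = 0.655). Without control replicate 2 it was 0.20, so the sign of the estimate rested on that library. The deposited gene model of vdra is only 822 bases long over a span of 2698 bases, whereas that of vdrb is 2128 bases long over a span of 51717 bases.

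The other copy, vdrb (chromosome 6, 38954733 to 39006449), had 1.55, 1.82 and 0.851 FPKM in Lurasidone and 1.34, 0.761 and 1.36 FPKM in control. The groups overlapped, and the lowest and highest libraries of each group differed by more than the group means did. Its log2 fold change was 0.15 with a 95% confidence interval from -0.34 to 0.64 (limma adjusted p = 0.689). Both receptor genes were measured at levels of 0.761 to 6.01 FPKM, where a change smaller than these intervals could not be detected.

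The only decrease past the threshold among the 10 genes was that of trpv6 (chromosome 16, 12294284 to 12319822), the calcium channel of the uptake ionocytes. It had 2.96, 4.38 and 2.89 FPKM in Lurasidone, against 12.1, 14.3 and 13.2 FPKM in control. Every control library was at least 2.75-fold above the highest Lurasidone library. The means were 3.41 ± 0.838 FPKM in Lurasidone and 13.2 ± 1.11 FPKM in control (SD, n = 3 each), 3.87-fold lower in Lurasidone. The log2 fold change was -1.70 with a 95% confidence interval from -2.10 to -1.30 on log2(FPKM + 1) (limma adjusted p = 0.00123), and -1.97 on fragments. It was past the threshold in each of 14 alternative analyses, with adjusted p between 9.46e-05 and 0.00896.

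Markers of ionocytes and of enterocytes were set beside trpv6, which is itself a marker of the calcium-taking ionocytes. The proton-secreting ionocytes are another type, so markers listed for them need not describe the calcium-taking cells. The other marker of the calcium-taking ionocytes, igfbp5a, which encodes an insulin-like growth factor binding protein, had only 15 fragments over the Lurasidone libraries and 5 over the control libraries, and was not tested. The 5 markers of the proton-secreting ionocytes, gcm2 among them, summed to 36.8 to 46.3 FPKM in Lurasidone and 35.4 to 49.5 FPKM in control. Of these markers, 0 were past the threshold, and they moved in different directions. Only rhcgb had a higher mean in Lurasidone (17.8 FPKM, against 12.6 FPKM in control). The marker foxi3a had 9.01 FPKM in Lurasidone and 14.0 FPKM in control. Its groups did not overlap, and it missed the threshold with limma (adjusted p = 0.139) and with voom (adjusted p = 0.092). Whether foxi3a is also expressed in the calcium-taking cells was not tested. The 3 enterocyte markers summed to 240 to 340 FPKM in Lurasidone and 398 to 413 FPKM in control, with 1 of them, the retinol binding protein gene rbp2a, past the threshold and lower. The part of gut cells or of the number of ionocytes in the decrease of trpv6 was not tested.

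The end of the trpv6 model overlaps that of a gene on the opposite strand, si_dkey-26c10.5, by 185 bases. That gene has a C-type lectin domain and was named after its values were seen. It had 0.611, 0.254 and 0.308 FPKM in Lurasidone and 2.17, 2.78 and 2.16 FPKM in control (limma adjusted p = 0.00462). It held 23 fragments over the Lurasidone libraries and 143 over the control libraries, and trpv6 held 349 and 1393. The part of this overlap in the decrease of trpv6 was not tested. Whether fragments of the shared end were divided between the genes is not given in the sources used here.

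**Figure D2:**
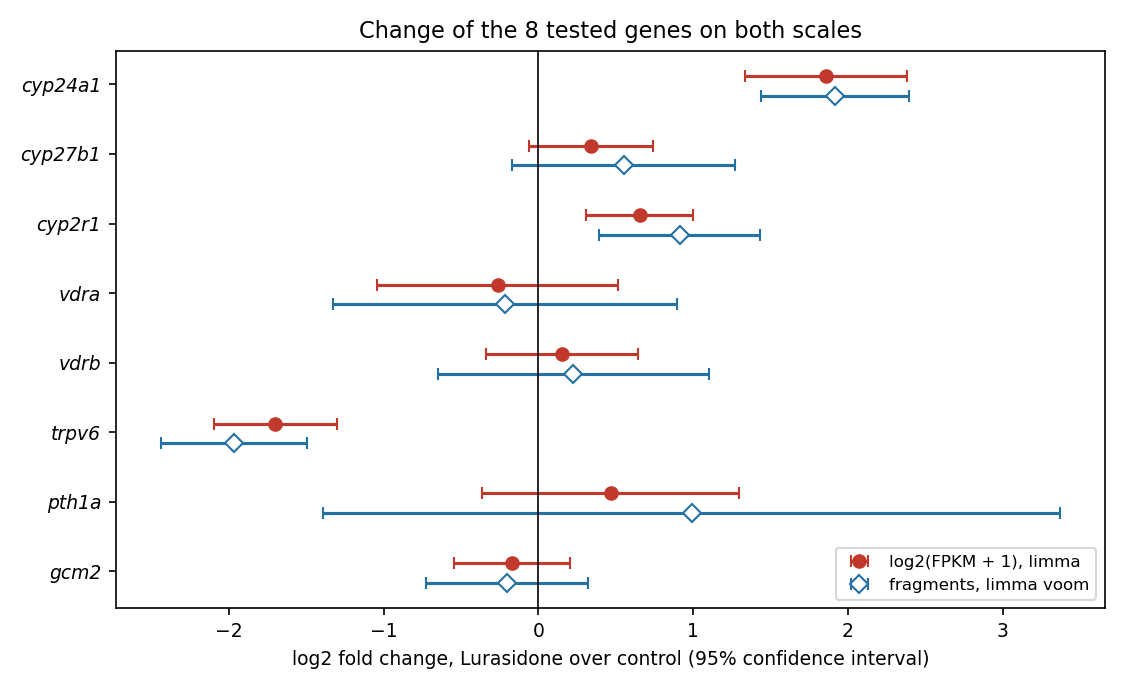
Log2 fold change, Lurasidone over control (x axis), with its 95% confidence interval for the 8 tested genes, on log2(FPKM + 1) with limma (circles) and on fragments with limma voom (diamonds). Both intervals lie above 0 for cyp24a1 and cyp2r1 and below 0 for trpv6, and they include 0 for the other 5 genes.

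The hormone and sensor genes were scarce in these libraries. For stc1 (chromosome 8, 50322769 to 50346246), FPKM was 0.907, 0.377 and 0.152 in Lurasidone and 0.263, 0.258 and 0.348 in control. These are 12, 5 and 2 fragments in Lurasidone and 4, 3 and 5 fragments in control, with overlapping groups. No difference was detectable at this depth, and the Lurasidone libraries alone spanned more than the whole range of the control libraries. For casr (chromosome 5, 67768162 to 67783593), the calcium-sensing receptor, the libraries held 4, 4 and 9 fragments in Lurasidone and 6, 0 and 6 fragments in control. The library with 0 fragments allows a level of up to 0.0688 FPKM, a limit that covers counting error only. Both genes were too low for the test.

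The parathyroid hormone gene pth1a (chromosome 25, 17860798 to 17861696) was uneven within both groups. It had 0.110, 1.75 and 1.55 FPKM in Lurasidone and 1.15, 0.250 and 0.101 FPKM in control. In fragments these were 1, 16 and 14 in Lurasidone and 12, 2 and 1 in control, so that 1 library of each group went against the other 2. The log2 fold change was 0.47 with a 95% confidence interval from -0.36 to 1.30 (limma adjusted p = 0.438). Among the parathyroid hormone relatives, pth2 and pthlha had log2 fold changes of -0.11 and 0.12 and were not past the threshold (limma adjusted p = 0.780 and 0.674), and pth1b and pthlhb were too low for the test.

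The ionocyte and parathyroid factor gene gcm2 (chromosome 24, 8827603 to 8831912) was close in level between the groups. It had 3.45, 3.41 and 3.06 FPKM in Lurasidone and 3.24, 4.49 and 3.88 FPKM in control, with overlapping groups. The log2 fold change was -0.17 with a 95% confidence interval from -0.55 to 0.20 (limma adjusted p = 0.536). This interval and that of trpv6, which ends at -1.30, do not overlap. As gcm2 marks the proton-secreting ionocytes, its level does not describe the calcium-taking cells. The part of the number of ionocytes in the decrease of trpv6 was not tested.

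The paralogs of the stanniocalcin gene were more abundant than stc1 itself and could be tested, and none of stc1l, stc2a and stc2b was past the threshold. The means were 2.99 ± 1.03 FPKM in Lurasidone and 2.50 ± 0.949 FPKM in control for stc1l, 4.09 ± 0.643 FPKM in Lurasidone and 3.48 ± 0.447 FPKM in control for stc2a, and 2.57 ± 0.202 FPKM in Lurasidone and 1.54 ± 0.438 FPKM in control for stc2b (SD, n = 3 each). For stc2b the groups did not overlap (log2 fold change 0.51, limma adjusted p = 0.109). Other channels of the Trpv family, trpv4 and trpv1, had log2 fold changes of 0.41 and 0.13 and were not past the threshold (limma adjusted p = 0.159 and 0.724).

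The order of the 10 levels differed between the groups. In Lurasidone, cyp24a1 at 73.6 FPKM was followed by cyp2r1 (3.42), trpv6 (3.41), gcm2 (3.31), vdra (2.10), cyp27b1 (1.85), vdrb (1.41), pth1a (1.14), stc1 (0.479) and casr (0.115). The 3 genes after cyp24a1 were not separated by their spread over libraries. In control, cyp24a1 at 19.4 FPKM was followed by trpv6 (13.2), gcm2 (3.87), vdra (3.15), cyp2r1 (1.81), cyp27b1 (1.24), vdrb (1.16), pth1a (0.499), stc1 (0.290) and casr (0.0720). The FPKM of cyp24a1 was 26.2, 20.7 and 18.3 times that of trpv6 in the Lurasidone libraries, against 1.57, 1.69 and 1.15 times in the control libraries. This ratio sets the largest increase among the 10 genes against the only decrease past the threshold. Its difference between the groups follows from those changes, is no separate result and is given with no test.

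**Figure D3:**
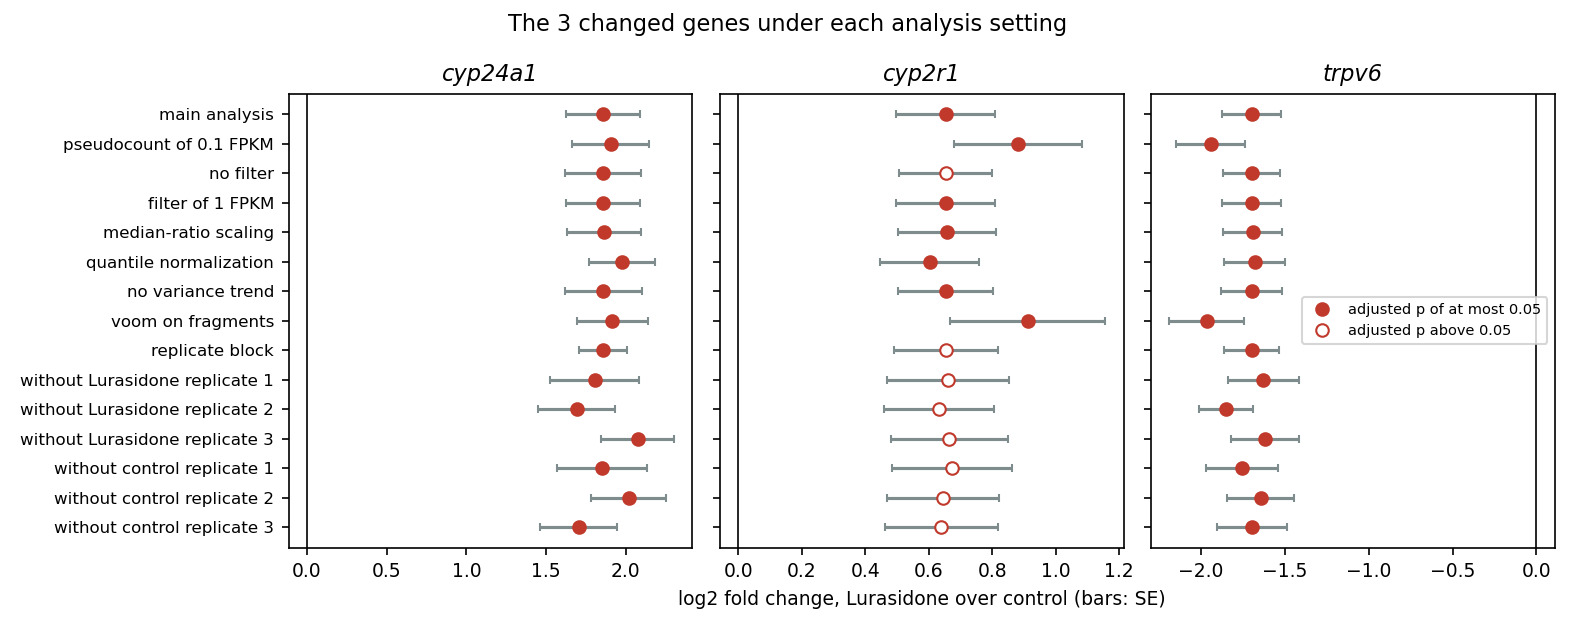
Log2 fold change, Lurasidone over control (x axis, bars for the SE), of cyp24a1, cyp2r1 and trpv6 in the main analysis and in each of 14 alternatives (y axis), with filled circles at an adjusted p of at most 0.05. All circles of cyp24a1 and trpv6 are filled, and 8 of those of cyp2r1 are open, while no estimate crosses 0.

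Around these genes, 6 lists of genes by symbol were examined, each without the 10 genes. The lists were chosen with earlier results of these data known, and some genes stand in more than 1 list. Among 28 tested genes of vitamin D supply, transport and receptor partners, 2 were higher and 1 was lower, and the median log2 fold change was -0.14, against -0.02 over all tested genes. The higher genes were cyp27c1, which converts vitamin A1 to A2 in zebrafish and had 6.72 ± 1.52 FPKM in Lurasidone and 3.05 ± 0.266 FPKM in control, and cyp27a7, of the sterol 27-hydroxylase family, with 15.3 ± 3.24 FPKM in Lurasidone and 7.58 ± 1.12 FPKM in control (SD, n = 3 each). The lower gene was rxrga, a retinoid X receptor gene, with 2.73 ± 0.237 FPKM in Lurasidone and 5.00 ± 0.375 FPKM in control. These 3 calls are 10.7% of the list, near the 9.70% over all tested genes. Voom, which called 12.9% of all tested genes, shared the 3 and called 4 higher and 1 lower. Without control replicate 1 the counts were 0 higher and 0 lower, against 506 and 161 over all tested genes. The count of lower genes was also 0 with the replicate block and in 5 of the 6 fits that left out 1 library. None of these 3 is known as a step that makes or breaks down the active hormone.

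The carrier of vitamin D in blood is encoded by gc. It had 61.1, 76.8 and 46.3 FPKM in Lurasidone and 37.5, 39.3 and 33.0 FPKM in control, with separate groups and a log2 fold change of 0.70, which missed the threshold with limma (adjusted p = 0.0545) and passed it with voom (adjusted p = 0.0277). The gene was singled out after its values were seen.

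Among 33 tested genes known in mammals to respond to vitamin D, 9 were higher and 1 was lower, and their median was 0.12 on the log2 scale. The share past the threshold was 30.3%, beside 9.70% over all tested genes. As the list was chosen with earlier results of these data known, this excess is no independent support for a vitamin D response. The count of higher genes was 11 with voom, which called 12.9% of all tested genes. It was 4 without a filter, 3 with the replicate block and 3 without Lurasidone replicate 2 or without control replicate 1. Over all tested genes the count of higher genes also fell in these settings, from 1356 to 899, 869, 709 and 506 in turn. The median of the list was 0.32 without Lurasidone replicate 3. Among the higher genes was pfkfb4b, a regulator of glycolysis, with 27.3 ± 5.14 FPKM in Lurasidone and 9.36 ± 0.887 FPKM in control. Higher too was cyp3a65, a P450 of drug and steroid breakdown, with 235 ± 22.7 FPKM in Lurasidone and 102 ± 24.3 FPKM in control. The lower gene, sost, encodes the Wnt inhibitor sclerostin of bone and had 4.12 ± 0.681 FPKM in Lurasidone and 8.27 ± 1.30 FPKM in control (SD, n = 3 each). These genes answer to many other signals as well.

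Calcium and phosphate hormones and their receptors had 24 tested genes, of which 1 was higher, 0 were lower, and the median log2 fold change was 0.16. The higher gene was calcrla, a receptor of the calcitonin family, with 6.87 ± 1.53 FPKM in Lurasidone and 3.54 ± 0.619 FPKM in control (SD, n = 3 each). This is 4.17% of the list, against 9.70% over all tested genes. Voom shared the call of calcrla, and the count was 0 without a filter, with the replicate block and in 5 of the 6 fits that left out 1 library. Among 33 tested genes of epithelial calcium transport and binding, 0 were higher and 1 was lower, with a median of -0.12 and 3.03% past the threshold. Voom, which called 12.9% of all tested genes, called 3 lower. Without Lurasidone replicate 3 or control replicate 1 the count of lower genes was 0. The lower gene was calb2b, which encodes the calcium-binding protein calretinin of nerve cells and had 70.4 ± 5.71 FPKM in Lurasidone and 142 ± 28.1 FPKM in control. Calcium pump (atp2b) and sodium-calcium exchanger (slc8) genes move calcium out of cells or compartments. Of the 13 tested, 0 were past the threshold with limma, against 9.70% of all tested genes. Their log2 fold changes were below 0 in 10 and above 0 in 3, where the median of all tested genes was -0.02. The lowest was atp2b1b, with 5.32 to 7.11 FPKM in Lurasidone and 8.85 to 11.6 FPKM in control. Its groups did not overlap, and its log2 fold change of -0.61 missed the threshold with limma (adjusted p = 0.0526) and passed it with voom (adjusted p = 0.0262). The highest was slc8a1b, at 0.33 on the log2 scale (limma adjusted p = 0.309).

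Of 29 tested ionocyte markers, 1 was higher and 0 were lower, with a median of 0.05 that was -0.01 with quantile normalization. This is 3.45% of the list, against 9.70% over all tested genes. Voom called 3 higher, and it called 12.9% of all tested genes. The higher one, the ammonia channel gene rhcga, had 56.9, 46.5 and 36.2 FPKM in Lurasidone, against 6.64, 6.83 and 6.12 FPKM in control. Its log2 fold change was 2.64 (limma adjusted p = 3.0e-04). The gene rhcga is not among the markers listed for the calcium-taking ionocytes, so its increase does not bear on trpv6. Of the 29 tested markers, 15 had log2 fold changes above 0 and 14 below.

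Phosphate transport and mineralization genes had 4 higher and 3 lower of 21 tested, a share of 33.3% beside 9.70% over all tested genes, with a median of 0.13. This list too was chosen with earlier results of these data known, so the excess is no independent support. Voom called 5 higher and 6 lower, and 12.9% of all tested genes. The counts were 0 higher and 0 lower without control replicate 1, 1 and 1 without a filter, and 2 and 1 with the replicate block. Over all tested genes they were 1356 and 914 in the main analysis. In the same 3 settings they were 506 and 161, 899 and 431, and 869 and 497. Among them, mgp, which encodes an inhibitor of calcification, had 33, 10 and 50 fragments in Lurasidone and 0, 1 and 3 fragments in control, so the control libraries were at or under the limit of 3 fragments. It could pass the filter only through the Lurasidone libraries, where it was high. Its place among the 4 higher genes and in the share of 33.3% is therefore no support for a change. The intestinal type phosphate transporter slc34a2a was higher, with 16.2 ± 2.24 FPKM in Lurasidone and 8.72 ± 1.17 FPKM in control. Higher as well was ankha, a gene of pyrophosphate export, with 3.50 ± 0.591 FPKM in Lurasidone and 1.72 ± 0.132 FPKM in control. Lower were entpd5a, needed by bone-forming cells in zebrafish, with 4.59 ± 1.16 FPKM in Lurasidone and 8.81 ± 1.101 FPKM in control, and col10a1a, a collagen of such cells, with 117 ± 8.85 FPKM in Lurasidone and 232 ± 68.9 FPKM in control (SD, n = 3 each). The last 2 are also markers of bone, whose 4 listed genes summed to 114.5 to 130.5 FPKM in Lurasidone and 180 to 318 FPKM in control. Most of this sum was col10a1a itself, so the sum is no separate result. The bone marker sp7 had 0.990 FPKM in Lurasidone and 2.00 FPKM in control. It missed the threshold with limma (adjusted p = 0.0632) and passed it with voom (adjusted p = 0.0191). The bone marker bglap was too low for the test. The part of bone cells in these values was not tested.

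**Figure D4:**
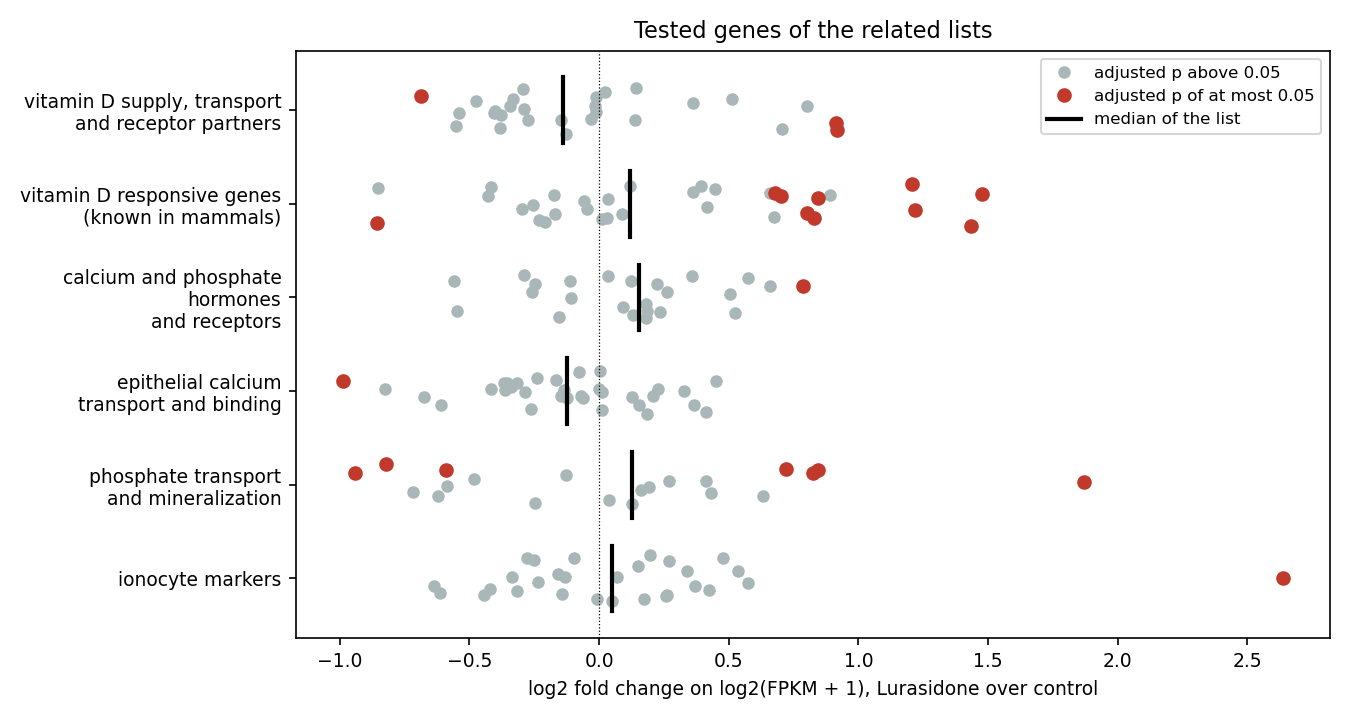
Log2 fold change on log2(FPKM + 1), Lurasidone over control (x axis), of each tested gene of the 6 lists (y axis), with red points at an adjusted p of at most 0.05 and a bar at the median of each list. The medians lie between -0.14 and 0.16, and the called points lie on both sides of 0 for the lists of vitamin D supply, vitamin D response and phosphate.

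The genes whose pattern over the 6 libraries was most like that of cyp24a1 were si_dkey-201c13.2, soul5 and pdk2b, with root mean square differences of 0.16, 0.18 and 0.19 from it on log2(FPKM + 1) centred per gene. The description in the table relates si_dkey-201c13.2 to Fam219a and soul5 to heme-binding proteins, and pdk2b encodes a pyruvate dehydrogenase kinase. In each of them Lurasidone replicate 3 was the lowest of the Lurasidone libraries, as it was for cyp24a1. These genes were picked for likeness over the same libraries, so this shared order follows from the choice and is no separate result. For pdk2b the levels were 99.3, 81.7 and 56.5 FPKM in Lurasidone and 19.6, 22.7 and 19.5 FPKM in control.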

How the data were processed

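The authors deposited FPKM values per gene for 6 libraries, with Ensembl identifiers, symbols, positions and gene length. The labels name the build GRCz11 (danRer11). The aligner, the counting tool and the annotation release are not given in the sources used here. The table held 0 columns of unknown samples. The control columns are headed CK, which a supplement of the study gives as its control. Fragments were read back by multiplying FPKM by gene length and dividing by the step of each library, and came out whole within 0.02. Summed fragments were 84.5 to 104% of the library size behind FPKM; how the authors set that size is not given in the sources used here. For genes that reached 0.5 FPKM in 3 or more libraries, limma 3.58.1 (trend) in R 4.3.3 was run on log2(FPKM + 1), with group as the only term, and adjusted by Benjamini-Hochberg over all tested genes. Log2 fold changes on this scale understate changes of low genes. Intervals are at 95%. Scripts were tested on 1 simulated draw, with the same relative variation between libraries for every gene. There limma on log2(FPKM + 1) made more false calls than its threshold allows and voom did not. The methods state separate biological replicates.

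The 10 genes and the 6 lists were chosen with earlier results of these data known. Named were all 10 genes, up to 4 called genes per list by adjusted p (5 for phosphate, by a tie), paralogs, and the 3 genes most like cyp24a1 with at least 1 FPKM on average. Other genes named by values were chosen after these were seen, among them gc, atp2b1b and slc8a1b. Alternatives were adding 0.1 in place of 1, leaving out the filter, filtering at 1 FPKM, median-ratio scaling, quantile normalization, no variance trend, voom on fragments, a replicate block, leaving out each library and adding the fold threshold. No sequences were used. A gene that the naming rule selects is not reported here.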

Additional observations from a re-analysis of the deposited data

How the results depend on the processing

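Over all tested genes, 1356 were higher and 914 lower in Lurasidone. The counts were 899 and 431 without a filter, 869 and 497 with the replicate number as a block, and 610 and 286 with the fold threshold added. Leaving out 1 library at a time gave 506 to 1383 higher and 161 to 1369 lower genes, with the lowest counts without control replicate 1 and the highest without control replicate 3. Of the 10 genes, 2 were higher in the main analysis, and 1 was higher without a filter, with the replicate block, with the fold threshold and without any 1 library (1 to 1). The gene lost was cyp2r1 each time, and trpv6 remained the 1 lower gene. Whether shared replicate numbers pair the libraries could not be settled. The deviations of same-numbered libraries from their group means correlated at 0.12, -0.10 and 0.00564 across genes, which are not independent. Those of differently numbered libraries correlated at -0.22 to 0.19. With 3 libraries per group, these values cannot exclude pairing. For vdra the log2 fold change of -0.26 turned to 0.20 without control replicate 2 and was -0.59 without control replicate 1 (range over the left-out libraries -0.59 to 0.20), and no other of the 8 tested genes changed sign. Scaling moved the median of all tested genes by less than 0.1 on the log2 scale. Depth limits what can be said of stc1, casr and pth1a, which had 0 to 16 fragments per library.

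Counts in the 6 lists also moved with the settings, as did those over all tested genes. There the count of higher genes was 1356 in the main analysis, 899 without a filter and 869 with the replicate block. It was 506 without control replicate 1. For vitamin D supply, 2 higher and 1 lower became 4 higher with a filter of 1 FPKM or with voom, 3 higher with quantile normalization, 3 higher without a variance trend and 0 lower with the replicate block. Leaving out 1 library gave 0 to 3 higher and 0 to 1 lower. For vitamin D response, 9 higher and 1 lower became 4 higher without a filter and 3 with the replicate block, and 3 to 7 higher and 0 to 2 lower without 1 library. The median of 0.12 in this list was 0.20 without a filter, 0.26 with a filter of 1 FPKM and 0.12 to 0.32 without 1 library. For hormones and receptors, the 1 higher gene became 0 without a filter, 0 with the replicate block and 0 to 1 without 1 library. For calcium transport, 0 higher and 1 lower became 1 higher and 2 lower with quantile normalization, 2 lower with a filter of 1 FPKM, 3 lower with voom and 0 to 1 lower without 1 library. For phosphate, 4 higher and 3 lower became 1 and 1 without a filter, 2 and 1 with the replicate block and 6 lower with voom, and 0 to 3 higher and 0 to 3 lower without 1 library. Its median of 0.13 was 0.0222 without a filter. For ionocytes, the 1 higher gene became 2 with quantile normalization, 3 with voom and 1 to 2 without 1 library, and the median of 0.05 was -0.01 with quantile normalization and -0.12 to 0.13 without 1 library. The causes of these moves were not tested.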
